A study of Homo sapiens with 6 samples.

Results

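The genes described here are the numbered ZNF genes that BEAS-2B cells transcribed at a countable level. A gene was included if its Ensembl ID maps to a protein-coding gene whose symbol is ZNF followed by digits only, and if its raw counts summed over the 3 control libraries reached 500. The rule took 86 of the 476 protein-coding ZNF genes in the table of 60892 rows, and left 390 below the threshold. Because the rule read the control counts, a high control value of a member is not a finding, and fold changes and adjusted p-values of members are given as a description. They are set beside the 7314 genes of any kind that reach the same control threshold.

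RNA was sequenced from BEAS-2B, an immortalised human bronchial epithelial cell line labelled wild type. In the ZQ group, cells received Zhenqi Granules, a herbal preparation, at 10 mg/mL for 24 hours before methicillin-resistant Staphylococcus aureus (MRSA) was added, and in the control group they received medium for 24 hours. MRSA was given at 1 bacterium per cell in both groups and RNA was taken 2 hours later, and the growth medium held serum and antibiotics. There were 3 libraries per group, all infected and all of a single line, and the labels do not say whether they were separate cultures. The p-values reflect how much these libraries differ, and that spread may be technical.

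ZNF genes encode proteins built on the C2H2 zinc finger, a short fold in which a pair of cysteines and a pair of histidines hold a zinc ion, and tandem fingers read DNA sequence. Many also carry a KRAB box near the start of the protein, which recruits TRIM28 (KAP1). TRIM28 brings the histone methyltransferase SETDB1 and HP1 proteins, and this machinery is known for silencing retroelements. Human genes of this kind lie in clusters of related copies, many of them on chromosome 19.

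The group is often called a family of repressors, but a KRAB A box was found in 38 of the 86 members (44.2%), against 309 of all 476 protein-coding ZNF genes (64.9%). A box was counted when at least 7 of 10 conserved positions matched in the translated longest coding sequence. With that threshold 3 members lay exactly at 7 and 2 lay just under it, at 6. The other 48 members include promoter-binding activators, partners of chromatin enzymes and proteins that act on RNA, ribosomes or the spindle, so the members are called ZNF genes and not repressors here. The members carried a median of 9 fingers and at most 33, and 2 carried none by the pattern used (ZNF185 and ZNF330).

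Below is the coding DNA of 1 finger each from 4 genes that fell with ZQ and the 1 gene that rose, read from GENCODE release 29 transcripts on GRCh38. It is shown because the fold, the repeated unit that defines the family, differs between genes in the bases between its marked codons. Capitals mark the codons of the 2 cysteines and 2 histidines. These codons are TGT and CAT in the 4 genes that fell, and TGC and CAC in ZNF511. Each line runs 5′ to 3′ on the coding strand.
ZNF260 finger: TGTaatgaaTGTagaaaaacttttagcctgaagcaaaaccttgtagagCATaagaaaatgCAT
ZNF845 finger: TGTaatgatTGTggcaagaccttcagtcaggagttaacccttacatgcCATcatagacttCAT
ZNF484 finger: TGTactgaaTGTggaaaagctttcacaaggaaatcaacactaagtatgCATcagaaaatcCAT
ZNF146 finger: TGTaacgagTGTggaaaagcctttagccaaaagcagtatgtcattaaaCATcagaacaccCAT
ZNF511 finger: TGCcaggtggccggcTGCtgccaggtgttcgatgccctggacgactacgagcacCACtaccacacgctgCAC
The finger of ZNF260 has a GC content of 31.8%, that of ZNF484 34.9%, that of ZNF146 39.7% and that of ZNF845 41.3%. The finger of ZNF511 has 65.3% GC, and its cysteines lie further apart. ZNF260 lies on chromosome 19 from 36510695 to 36528660 on the minus strand, and ZNF146 lies in the same cluster from 36214602 to 36238774 on the plus strand. ZNF845 lies on chromosome 19 from 53333746 to 53356906 on the plus strand, ZNF484 on chromosome 9 from 92845031 to 92878038 on the minus strand, and ZNF511 on chromosome 10 from 133308475 to 133313162 on the plus strand.

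The KRAB A box, the part that binds TRIM28, is shown for 2 of these genes, ZNF845 and ZNF484. Capitals mark the codons at conserved positions that matched.
ZNF845 KRAB A box: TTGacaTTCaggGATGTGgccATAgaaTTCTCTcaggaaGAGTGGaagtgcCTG
ZNF484 KRAB A box: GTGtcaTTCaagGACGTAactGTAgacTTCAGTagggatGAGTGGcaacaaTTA
ZNF260, ZNF146 and ZNF511 gave no KRAB box by the same search.

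ZQ libraries were shallower, with 2064566 to 2451746 counts against 11665967 to 14699677 in control libraries, a mean depth 5.95 times lower. Mitochondrial transcripts took 39.6% ± 1.13 of counts with ZQ and 8.74% ± 1.57 in control libraries (SD, n = 3 each). Among markers of the cell type, KRT8 and KRT18 were high in every library. KRT8 had 659 to 715 CPM with ZQ and 1089 to 2332 CPM in control libraries. KRT18 had 611 to 775 CPM with ZQ and 619 to 781 CPM in control libraries. In the other direction, KRT7 had 435 to 551 CPM with ZQ and 127 to 198 CPM in control libraries. The epithelial markers EPCAM, CDH1 and KRT5 were at most 2.90 CPM. The 5 leukocyte markers summed to 2.19 to 5.58 CPM with ZQ and to 0 to 0.684 CPM in control libraries, with LYZ and CD68 at 0 in all 6 libraries. The 3 endothelial markers summed to 17.6 to 20.3 CPM with ZQ and to 0.93 to 2.12 CPM in control libraries. The 3 fibroblast markers, nearly all COL1A1, summed to 98.7 to 130 CPM with ZQ and to 297 to 582 CPM in control libraries, and mesenchymal genes known in this line differed in both directions. VIM had 1340 to 1615 CPM with ZQ and 424 to 488 CPM in control libraries, FN1 had 91.0 to 132 CPM with ZQ and 885 to 1281 CPM in control libraries, and CDH2 had 15.9 to 23.2 CPM with ZQ and 107 to 119 CPM in control libraries. The part of these markers in the results below was not tested, nor was that of the mitochondrial share. In bulk RNA, fewer cells and less RNA per cell cannot be told apart.

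The 86 members together took 0.146% of all counts with ZQ and 0.318% in control libraries. Scaled by TMM for library size and composition (CPM), their sum was 1729, 1684 and 1686 CPM in the ZQ libraries, against 2855, 2632 and 2904 CPM in the control libraries. The groups did not overlap, and each ZQ library lay below each control library. The means were 1700 ± 25.3 CPM with ZQ and 2797 ± 145 CPM in control cells (SD, n = 3 each), a log2 ratio of -0.72. The size of that ratio moved with the scaling. It was -1.12 by library totals, -0.53 by totals without mitochondrial counts and -0.27 by upper-quartile scaling, which shifts the median of all tested genes by 0.45. KRAB members summed to 398 ± 10.9 CPM with ZQ and 695 ± 25.5 CPM in control cells, and members without a KRAB box to 1301 ± 34.0 CPM with ZQ and 2102 ± 129 CPM in control cells (SD, n = 3 each).

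Over the whole table, 4978 of 12994 tested genes (38.3%) had a Benjamini-Hochberg adjusted p under 0.05 by the quasi-likelihood test of edgeR, 2506 higher (19.3%) and 2472 lower (19.0%) with ZQ. Of the 86 members, all of which were tested, 22 were lower (25.6%) and 1 was higher (1.16%). Among genes with the same control threshold, 30.9% were lower and 10.4% higher, so at this threshold the share of lower members is near and below its background. At 1000 control counts the order was the other way: of 27 members 12 were lower (44.4%), at a median log2 fold change of -0.90. For all genes with that many counts the values were 37.4% and -0.59. With offsets for GC content and length, described further on, 18.5% of these members and 30.5% of those genes were lower. The difference was not tested. The ZQ and control CPM did not overlap for 36 members, with ZQ below in 33 and above in 3 (ZNF511, ZNF664 and ZNF714). Over all tested genes ZQ lay below without overlap in 28.0% and above in 25.4%. Among genes with the same control threshold these shares were 42.6% and 15.1%.

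The median log2 fold change of the members was -0.71 (quartiles -1.42 and -0.13), and 67 of 86 were negative (77.9%). The same median was -0.46 over genes with at least 500 control counts, of which 66.4% were negative, and 0.03 over all tested genes. Members ranged from ZNF260 at -3.95 to ZNF511 at 1.26. Leaving out control replicate 3 left 12 members lower (14%, against 19.9% of genes with at least 500 control counts). Leaving out control replicate 1 left 13 (15.1%, against 18.7%). Under each of the 18 alternatives run 6 members stayed lower: ZNF146, ZNF260, ZNF292, ZNF451, ZNF622 and ZNF654. A KRAB box was found in 0 of those 6, and KRAB members had fewer ZQ counts (median 51.5, against 113.5 without the box). The part of counts in this was not tested. The share of all genes that stayed lower under each alternative is not given here. The rule also shapes the balance: ZNF genes chosen on ZQ counts in place of control counts numbered 49, with 8 lower (16.3%), 4 higher (8.16%) and a median of 0.17. All genes chosen on ZQ counts in the same way had 24.3% lower, 18% higher and a median of -0.07.

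**Figure D1:**
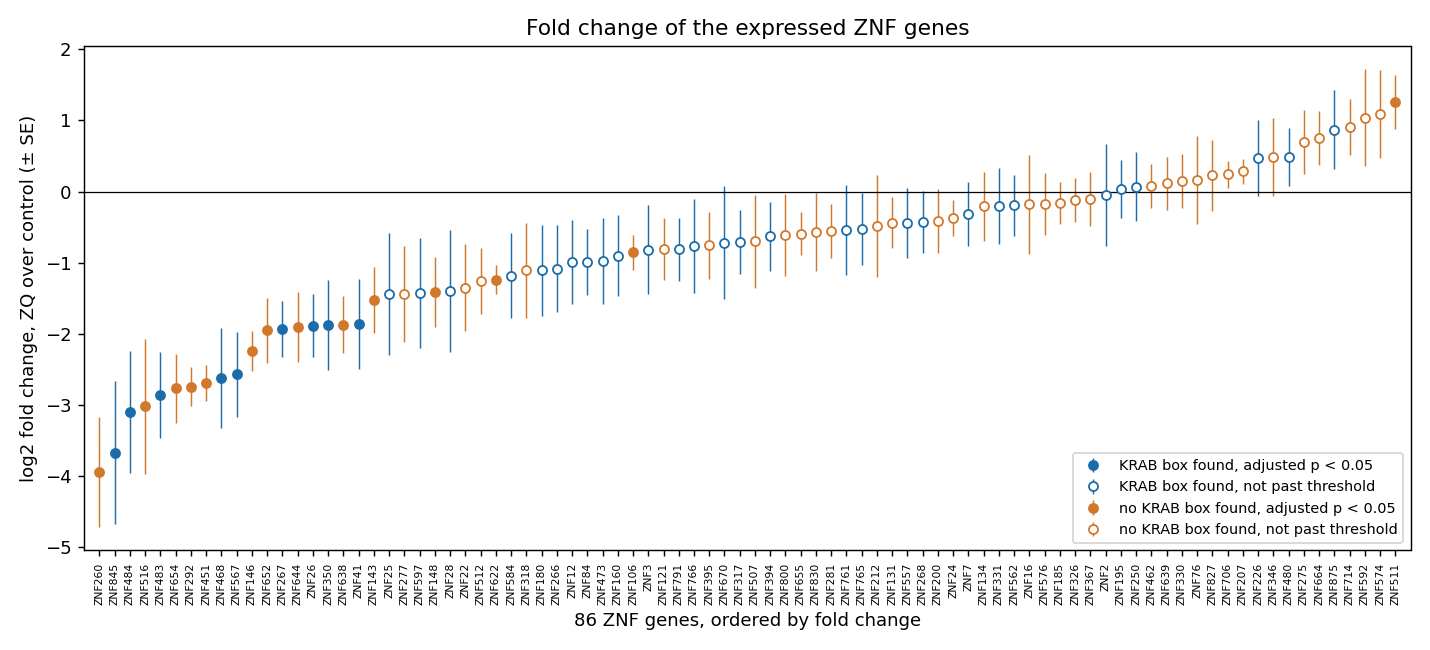
Log2 fold change of ZQ over control (vertical axis, with bars of 1 standard error) for the 86 ZNF genes, ordered along the horizontal axis from lowest to highest; blue marks genes with a KRAB box and orange those without, filled points are past an adjusted p of 0.05. The 22 filled points below 0 include 9 KRAB genes, and ZNF511 at 1.26 is the single filled point above 0.

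Among the 38 KRAB members, 9 were lower and 0 higher with ZQ, with a median log2 fold change of -0.86 and 33 of 38 negative. Among the 48 members without the box, 13 were lower and 1 was higher, with a median of -0.52. The difference between these subgroups was not tested, and 30.9% of all genes with the same control threshold were lower. The 9 KRAB genes were ZNF845, ZNF484, ZNF483, ZNF468, ZNF567, ZNF267, ZNF26, ZNF350 and ZNF41, and of these ZNF845, ZNF483 and ZNF26 kept the call with offsets for GC content and length, an alternative described further on.

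ZNF845, a KRAB gene of the chromosome 19 cluster with 26 fingers, had 3.84, 0 and 0 CPM in ZQ libraries, against 19.8, 9.94 and 18.7 CPM in control libraries. All 7 of its ZQ counts came from ZQ replicate 1, so its level there rests on a single library. Its log2 fold change was -3.67 ± 1.00 (SE, edgeR adjusted p = 0.015), and the call was lost without control replicate 1 or control replicate 3. ZNF484 had 0.549, 3.87 and 0 CPM with ZQ, against 11.9, 13.4 and 14.6 CPM in control libraries. Its 3 ZQ values lay below every control value, at -3.10 ± 0.86 (SE, edgeR adjusted p = 0.016), with the call lost without control replicate 2 or 3 and a value of -5.62 without ZQ replicate 2. ZNF483, which pairs the KRAB box with a SCAN domain, had 1.65, 0.968 and 2.79 CPM with ZQ, against 11.7, 12.8 and 14.7 CPM in control libraries. It fell by 2.87 on the log2 scale (SE 0.60, edgeR adjusted p = 0.0040), and no single library left out ended that call. ZNF483 had only 10 counts in all with ZQ.

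ZNF468 had 1.65, 15.5 and 2.23 CPM with ZQ, against 47.5, 27.4 and 47.3 CPM in control libraries, with 82.1% of its ZQ counts in ZQ replicate 2. It fell by 2.62 (SE 0.70, edgeR adjusted p = 0.014), and 53.3% of its exon length overlaps another gene on the same strand, so reads of the pair cannot be told apart. With single libraries left out its fold change ran from -4.48 to -2.26. ZNF267 was even across libraries, at 8.23, 8.71 and 7.26 CPM with ZQ, against 25.5, 33.0 and 34.6 CPM in control libraries. ZNF350 (ZBRK1), a KRAB repressor that works with BRCA1, had 1.10, 7.74 and 3.35 CPM with ZQ, against 14.2, 14.8 and 16.9 CPM in control libraries. Its fold change was -1.89 ± 0.63 (SE, edgeR adjusted p = 0.038), and it lost the call without any single control library or ZQ replicate 3, with values from -2.87 to -1.54.

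Of the listed KRAB proteins known to bind retroelements, ZNF765 and ZNF195 were members, and neither passed the test. ZNF195 had 14.3, 16.9 and 15.1 CPM with ZQ, against 15.5, 17.8 and 11.9 CPM in control libraries, and the groups overlapped. ZNF765 had 5.49, 9.68 and 11.7 CPM with ZQ, against 17.3, 11.5 and 10.0 CPM in control libraries, and these overlapped as well.

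The chromosome 19 genes can be read along the chromosome. Of the 86 members 29 lie there, 21 of them with a KRAB box. Of these 29, 6 were lower with ZQ (20.7%), with a median of -0.77. Of the 57 members elsewhere 16 were lower (28.1%), with a median of -0.62. The share over all genes with the same control threshold was 30.9%. The longest run of neighbouring members spans 51964343 to 53580269 on GRCh38 and holds 10 KRAB genes, ZNF350, ZNF766, ZNF480, ZNF28, ZNF468, ZNF160, ZNF845, ZNF765, ZNF761 and ZNF331. In that run 3 genes were lower (ZNF350, ZNF468 and ZNF845), the median was -0.84 and values ranged from -3.67 to 0.49. A second run holds ZNF146, ZNF260, ZNF567 and ZNF875, of which the first 3 were lower while ZNF875 stood at 0.87 ± 0.56 (SE, edgeR adjusted p = 0.24). Neighbours therefore did not share a single fold change.

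Among 8 members listed as partners of chromatin enzymes, 5 were lower and 0 higher, with a median of -1.89, and with offsets 3 were lower. Among all genes with at least 500 control counts 30.9% were lower and 10.4% higher, and among the 86 members 25.6% were lower. The list was drawn up with earlier results of these data known, so its count supports nothing further. ZNF292, a very large zinc finger protein whose loss causes a neurodevelopmental disorder, had 23.0, 27.6 and 46.9 CPM with ZQ, against 225, 182 and 246 CPM in control libraries. It fell by 2.75 on the log2 scale (SE 0.28, edgeR adjusted p = 8.0e-05). ZNF451, a SUMO ligase, had 20.3, 16.4 and 15.6 CPM with ZQ, against 114, 102.3 and 124 CPM in control libraries. It fell by 2.70 (SE 0.26, edgeR adjusted p = 5.1e-05), and the ZQ values of both genes lay far below their control values.

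ZNF638 (NP220), which recruits the HUSH silencing complex to unintegrated retroviral DNA, had 38.9, 36.8 and 12.3 CPM with ZQ, against 110, 79.0 and 135 CPM in control libraries. It fell by 1.88 (SE 0.40, edgeR adjusted p = 0.0043), a call lost with offsets (-0.97, adjusted p = 0.076). ZNF644, a partner of the methyltransferases EHMT1 and EHMT2, had 8.23, 40.6 and 13.96 CPM with ZQ, against 69.0, 72.9 and 96.0 CPM in control libraries. It fell by 1.91 (SE 0.49, edgeR adjusted p = 0.012), and the call was lost without control replicate 3 and with offsets (-0.76, adjusted p = 0.26), and the value was -2.93 without ZQ replicate 2.

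ZNF516, found in CtBP and LSD1 co-repressor complexes, had 6.58, 0.484 and 0 CPM with ZQ, against 15.8, 12.1 and 29.1 CPM in control libraries. The call (-3.03 ± 0.95, SE, edgeR adjusted p = 0.029) was lost without ZQ replicate 2 or any single control library, and the value was -6.22 without ZQ replicate 1. The other 3 genes of the list did not pass the test: ZNF462 stood at 0.08, ZNF827 at 0.23 and ZNF592 at 1.04 on the log2 scale, and ZNF462 and ZNF827 turned negative by library totals. ZNF592 had 3.29, 38.7 and 29.6 CPM with ZQ, against 9.78, 16.1 and 8.94 CPM in control libraries, so its ZQ libraries lay on both sides of the control values.

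**Figure D2:**
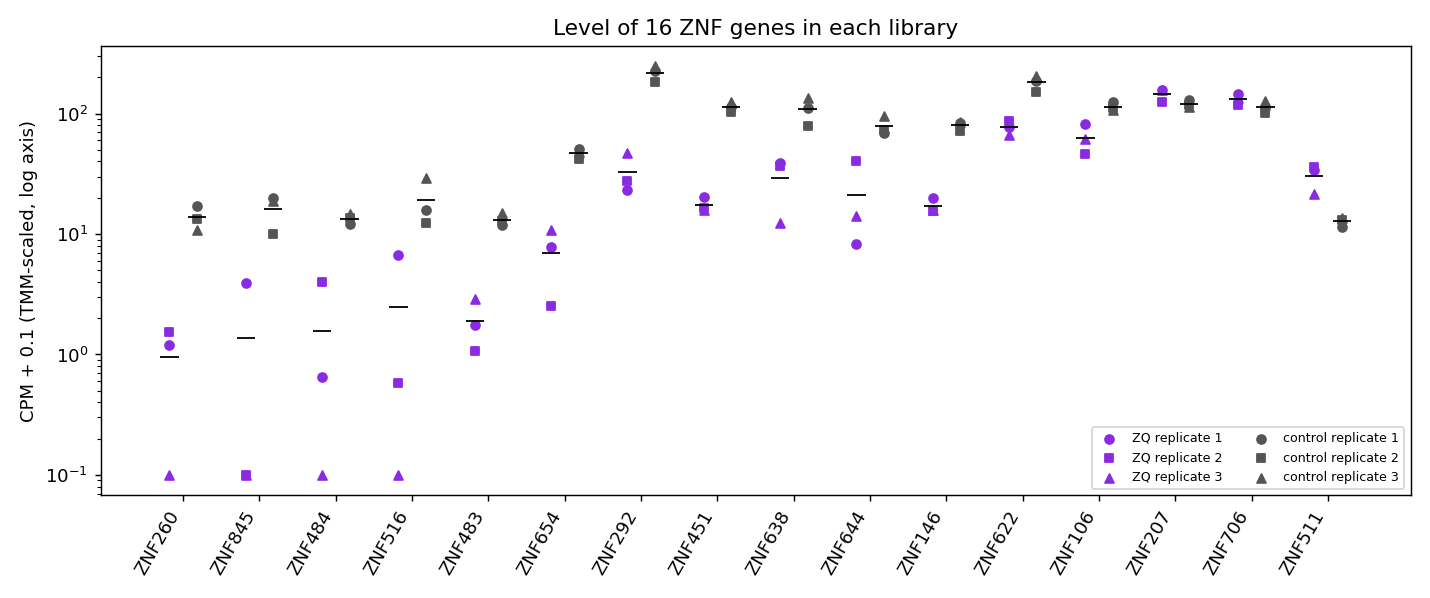
CPM plus 0.1 on a log axis for 16 ZNF genes (horizontal axis), with ZQ libraries in purple left of control libraries in grey, a marker shape per replicate and a bar at each group mean. ZNF451 and ZNF146 lie well apart with tight ZQ points, ZNF845 and ZNF516 are spread over ZQ libraries down to 0 counts, and ZNF207 and ZNF706 overlap between the groups.

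Among members outside these lists, ZNF260, a protein made of little besides fingers, had 1.10, 1.45 and 0 CPM with ZQ, against 17.03, 13.2 and 10.6 CPM in control libraries, which is 5 counts in all with ZQ. Its fold change was -3.95 ± 0.78 (SE, edgeR adjusted p = 0.0028). ZNF146 (OZF), whose protein is nearly all fingers, had 19.7, 15.5 and 15.6 CPM with ZQ, against 83.6, 72.0 and 85.6 CPM in control libraries. It fell by 2.25 (SE 0.28, edgeR adjusted p = 2.6e-04) and its 3 ZQ values were even. ZNF654 had 7.68, 2.42 and 10.6 CPM with ZQ, against 50.4, 41.9 and 47.8 CPM in control libraries, and fell by 2.77 (SE 0.49, edgeR adjusted p = 0.0015).

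Of 7 listed members that bind promoters as activators or in both directions, 2 were lower and 0 higher, with a median of -0.56. With offsets 0 passed in either direction. Among all genes with at least 500 control counts 30.9% were lower and 10.4% higher, and with offsets 25.4% and 12%. This list too was drawn up with earlier results known. ZNF143, an activator bound at many promoters, had 8.78, 4.35 and 9.49 CPM with ZQ, against 18.5, 21.8 and 24.8 CPM in control libraries. Its call (-1.53 ± 0.46, SE, edgeR adjusted p = 0.025) was lost without any single control library. ZNF148, which binds GC-rich promoters, had 15.9, 5.81 and 29.03 CPM with ZQ, against 43.6, 42.1 and 48.5 CPM in control libraries. Its call (-1.41 ± 0.49, SE, edgeR adjusted p = 0.044) was lost without ZQ replicate 1 or any single control library, and the value was -2.15 without ZQ replicate 3. ZNF281, a relative of ZNF148, stood at -0.56, ZNF131 at -0.44 and ZNF24 at -0.37, none past the threshold, and ZNF131 and ZNF24 turned slightly positive under upper-quartile scaling. With offsets ZNF24 stood at 0.69 (edgeR adjusted p = 0.053), ZNF131 at 0.50 and ZNF281 at 0.23, again none past the threshold.

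Of 11 listed members that act on RNA, ribosomes or the spindle, 2 were lower and 0 higher, with a median of -0.18. With offsets 1 was lower and 4 were higher. The background at the same control threshold was 30.9% lower and 10.4% higher, and with offsets 25.4% and 12%. This list was likewise drawn up with earlier results known. ZNF622, which releases a factor from new large ribosomal subunits, had 77.9, 86.1 and 66.4 CPM with ZQ, against 188, 151 and 206 CPM in control libraries. It fell by 1.24 (SE 0.20, edgeR adjusted p = 9.0e-04), and it had the highest level per exon length of the members in both groups, 45.2 CPM per kilobase with ZQ and 107 CPM per kilobase in control cells. ZNF106, an RNA-binding protein, had 82.3, 46.0 and 60.8 CPM with ZQ, against 124, 111 and 107 CPM in control libraries, a call (-0.85 ± 0.25, SE, edgeR adjusted p = 0.020) lost without any single control library.

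ZNF207 (BuGZ), which loads BUB3 onto kinetochores, had 156, 126 and 157 CPM with ZQ, against 130, 118 and 113 CPM in control libraries, and the groups overlapped. Its fold change was 0.28 ± 0.18 (SE, edgeR adjusted p = 0.24) and turned to -0.12 by library totals. ZNF706, a small protein with 1 finger, had 144, 119 and 136 CPM with ZQ, against 110, 100 and 127 CPM in control libraries, at 0.24 ± 0.19 (SE, edgeR adjusted p = 0.33) and -0.16 by library totals. With offsets both passed, ZNF207 at 0.85 (adjusted p = 0.0042) and ZNF706 at 1.33 (adjusted p = 3.4e-04). Of the 50-base windows of ZNF207 20.7% occur in another gene, so its count is uncertain.

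Of 4 members listed for imprinting or growth control, none passed the test. ZNF331, an imprinted KRAB gene, had 29.1, 18.4 and 5.58 CPM with ZQ, against 22.9, 22.3 and 15.9 CPM in control libraries, with ZQ values on both sides of the control range. ZNF268 stood at -0.43, ZNF395 at -0.75 and ZNF185, a LIM-domain protein of the actin cytoskeleton, at -0.16, and ZNF331, ZNF268 and ZNF185 turned positive under upper-quartile scaling. The count of ZNF395 is uncertain, as 41.7% of its 50-base windows occur in another gene. Of its exon length 34.9% overlaps a gene on the same strand.

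The single member that rose was ZNF511, a gene of little described function. It had 34.0, 35.8 and 21.2 CPM with ZQ, against 11.4, 13.1 and 13.5 CPM in control libraries, and the groups did not overlap. It rose by 1.26 ± 0.38 (SE, edgeR adjusted p = 0.025), and it passed under 9 of 18 alternatives. The call was lost without ZQ replicate 1 or 2, without control replicate 1 or 3, and with offsets (0.86, adjusted p = 0.096). Of its exon length 32.8% overlaps a gene on the opposite strand and 18.6% one on the same strand, and 23.5% of its 50-base windows occur in another gene, so its count is uncertain.

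The GC content of members ran with their fold change. Across the 86 members, Spearman's rho between log2 fold change and transcript GC content was 0.46, and across 7166 protein-coding genes with the same control threshold it was 0.45, both descriptions across genes, which share libraries and depth. The 29 members of lowest GC content held 11 lower genes at a median of -1.40, the 29 in the middle held 9 at -0.85, and the 28 of highest GC content held 2 lower and 1 higher at -0.18. Protein-coding genes in the same GC ranges had medians of -1.17, -0.83 and -0.14, with 49.6%, 42.3% and 20.1% lower. With offsets for GC content and transcript length fitted per library, 10 members were lower and 6 higher, the median was -0.13, and rho was 0.04. Genes with at least 500 control counts then had a median of -0.33, with 25.4% lower. The 10 genes still lower were ZNF260, ZNF845, ZNF516, ZNF483, ZNF654, ZNF292, ZNF451, ZNF146, ZNF26 and ZNF622, all among the 22.

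**Figure D3:**
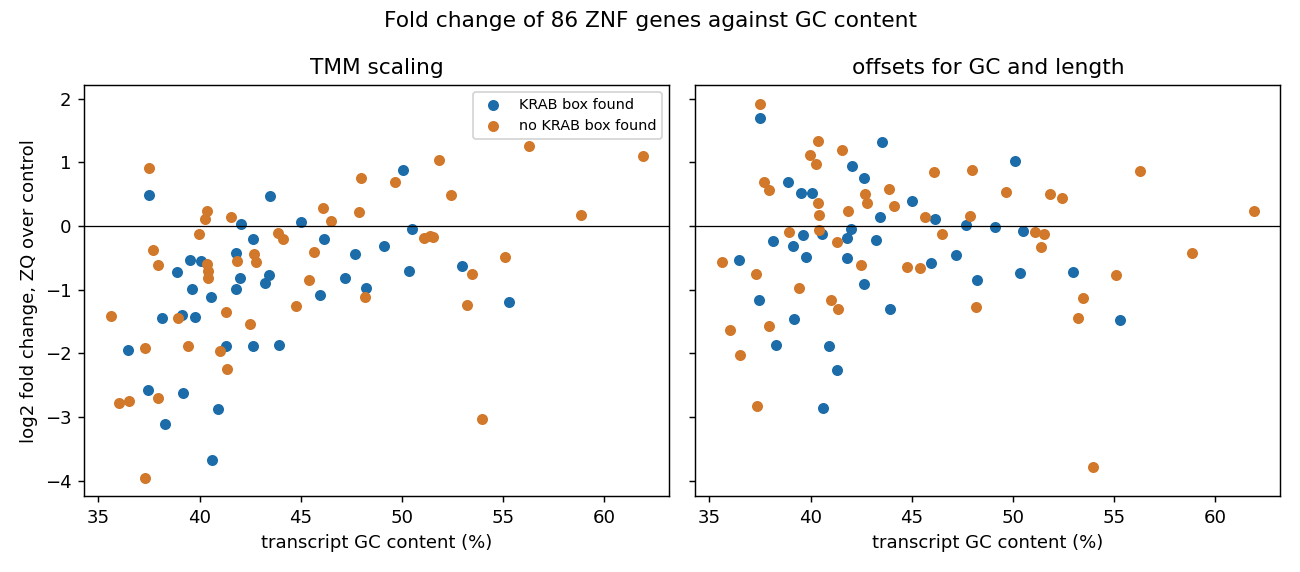
Log2 fold change of ZQ over control (vertical axis) against transcript GC content in percent (horizontal axis) for the 86 ZNF genes, with TMM scaling on the left and offsets for GC content and length on the right; blue points have a KRAB box and orange points do not. The slope seen on the left, with a Spearman's rho of 0.46, is at 0.04 on the right.

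Other features of the proteins ran weakly with the fold change, with a Spearman's rho of -0.16 for the number of fingers, -0.27 for coding length and -0.20 for transcript length over the 86 members. Of the 38 members with at least 10 fingers 13 were lower (34.2%). Of the 27 with 5 to 9 fingers 5 were lower (18.5%), and of the 21 with 0 to 4 fingers 4 (19%). Their medians were -0.98, -0.63 and -0.48, and their median GC contents 41.8%, 42.5% and 44.8%. Of all genes with the same control threshold 30.9% were lower. The difference between these finger groups was not tested.

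ZNF counts were spread unevenly over the ZQ libraries. For 41 of 86 members, over 50% of the ZQ counts came from 1 library, against 3 of 86 for the control libraries and 3 of 86 after these were thinned to the ZQ depth. Thinning matched total counts and not the counts of members. The members kept a median of 133 counts in thinned control libraries, against 69 with ZQ, so the part of low counts cannot be read from it. The library in question was ZQ replicate 2 for 20 genes, ZQ replicate 1 for 13 and ZQ replicate 3 for 8, so it was not a single library. The median largest share was 50% with ZQ and 38.7% in control libraries. Among all genes with at least 500 control counts and 10 to 1000 counts in the group compared, 30.1% had such a share with ZQ. It was 18.8% in control libraries and 7.87% in thinned control libraries, which had a median of 264 counts per gene. In the same window 38 of 83 members (45.8%) had such a share with ZQ. Their median was 81 ZQ counts, against 165 for all genes in the window, and the part of this difference was not tested. This measure was chosen after the values were seen.

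ZNF670 and ZNF28 show the pattern. ZNF670 had 4, 54 and 4 counts in ZQ libraries, and ZNF28 had 37, 1 and 5. The standard deviation of log2 CPM was larger with ZQ for 80 of 86 members, with a median of 0.83 with ZQ and 0.21 in control libraries. In the control group ZNF574 stood out in the same way, with 583 of its 775 counts in control replicate 2.

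**Figure D4:**
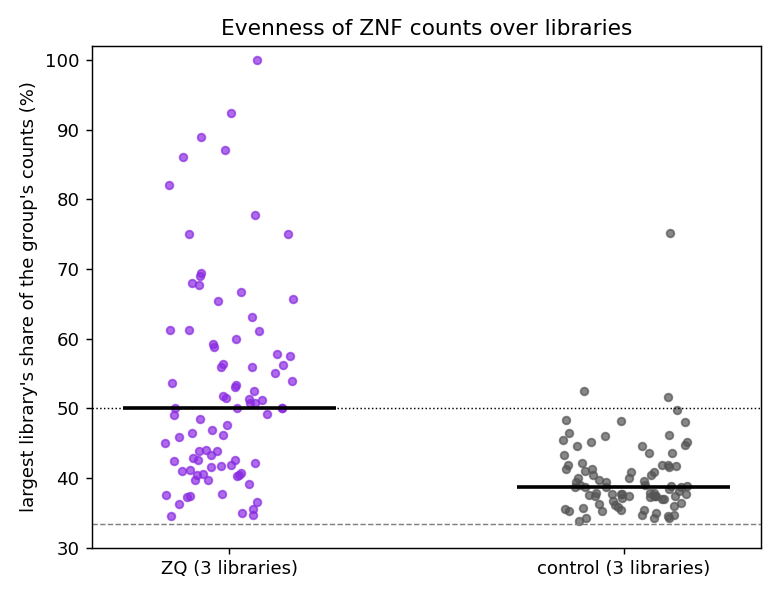
For each of the 86 ZNF genes (points), the percent of the group's counts found in its largest library (vertical axis), for ZQ on the left and control on the right; the black bar is the median, the dotted line 50% and the dashed line an even split over 3 libraries. With ZQ 41 genes lie above 50%, and in control libraries 3 do.

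ZQ depth sets how firmly low members can be read. With ZQ 24 members had fewer than 50 counts in all, 3 had fewer than 10, and 50 had at least 10 counts in each ZQ library. ZQ counts per kilobase of exon ranged from 0.84 to 258, with a median of 11.3. The pooled density on 389 olfactory receptor genes, which an epithelial line should not transcribe, was 1.48 counts per kilobase with ZQ and 0.164 in control libraries, and 2 members (ZNF260 and ZNF845) lay under it with ZQ. The ZQ level of those 2 genes was not above that density. ZNF26 at 1.49, ZNF516 at 1.58 and ZNF483 at 1.74 counts per kilobase with ZQ lay only slightly above it. All of these genes are among those still lower with offsets.

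Just inside the threshold stood ZNF714 with 500 control counts, ZNF875 with 521 and ZNF266 with 529, and just outside it ZNF430 with 497, ZNF544 with 495 and ZNF304 with 494. Their log2 fold changes were 0.90, 0.87 and -1.09 inside and -0.89, -0.89 and -0.37 outside, and none of the 6 passed the test. Without ZQ replicate 2, ZNF304 stood at -2.81 and ZNF266 at -2.03 and both passed, and ZNF544 stood at -2.03 without ZQ replicate 3 and did not pass. ZNF714 passed with DESeq2 (0.99), upper-quartile scaling (1.35), totals without mitochondrial counts (1.10) and offsets (1.92). The 390 genes under the threshold summed to 1545 ± 45.6 CPM with ZQ and 1187 ± 65.2 CPM in control cells (SD, n = 3 each). Of the 254 of them that were tested 25 were higher and 16 lower, with a median of 0.21. Over all tested genes 19.3% were higher and 19.0% lower, with a median of 0.03. The 390 genes under the threshold averaged 1.39 counts per kilobase in a ZQ library, where olfactory receptor genes had 0.494. In a control library they averaged 8.50, where olfactory receptor genes had 0.0546. That density was thus a larger part of their ZQ sum than of their control sum, and the sums are given without taking it off.

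The machinery that KRAB proteins recruit was read from a list of 30 co-repressor genes. All 30 were tested, 10 were lower (33.3%) and 3 higher (10.0%), with a median of -0.47. These shares were near the 30.9% and 10.4% of genes with at least 500 control counts. The list itself was not held to that threshold, and EHMT2 had 201 control counts and SETDB1 had 294. TRIM28, the protein that binds the KRAB box, had 264, 224 and 221 CPM with ZQ, against 80.8, 103 and 78.1 CPM in control libraries. It rose by 1.43 ± 0.18 (SE, edgeR adjusted p = 3.1e-04), and with offsets it stood at 0.22 (adjusted p = 0.33). SETDB1, the methyltransferase that TRIM28 recruits, had 3.29, 27.1 and 10.0 CPM with ZQ, against 7.25, 6.28 and 6.17 CPM in control libraries, with overlapping groups.

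HP1 proteins bind the mark that SETDB1 writes. CBX5 stood at -0.57, CBX3 at -0.45 and CBX1 at 0.45 on the log2 scale, none past the threshold (edgeR adjusted p = 0.083, 0.067 and 0.10). CBX3 turned to 0.85 with offsets (adjusted p = 0.0010), and CBX1 stood at 0.92 with offsets (adjusted p = 0.0047). The other genes that rose were EHMT2 and SUMO2. Those that fell included ATRX, DAXX, HDAC1, MORC3, SMARCA5, SMARCAD1, SUMO3, TASOR and UHRF1. Of the subunits of the HUSH complex on the list, TASOR fell while PPHLN1 (-0.63) and MPHOSPH8 (0.64) did not pass, and with offsets MPHOSPH8 stood at 1.25 (edgeR adjusted p = 0.013). Without control replicate 1, 8 of the 30 genes passed in either direction. ATRX, MORC3 and TASOR lost the call without control replicate 1 or 3, UHRF1 without control replicate 2, and SUMO2 without control replicate 1 or any single ZQ library. With offsets the calls of ATRX (-0.65), MORC3 (-0.53), TASOR (-0.47) and EHMT2 (1.28) were lost, and by library totals SUMO2 stood at -0.01.

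Zinc finger genes of other families give a comparison. Of 28 with at least 500 control counts, 10 were lower and 1 higher, with a median of -1.11. The 12 ZBTB genes, which join fingers to a BTB domain, held 7 lower genes at a median of -2.01, and 3 of 6 KLF genes were lower. None of the 3 ZSCAN, 3 ZKSCAN, 2 ZFP and 2 PRDM genes was lower, and 1 PRDM gene was higher. The share of lower genes at the same control threshold was 30.9% over all genes. The difference between these families and the ZNF genes was not tested.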

How the data were processed

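RNA-seq counts of 6 BEAS-2B libraries were analysed. The deposited values are raw counts of reads for each gene. Per the submitters' processing notes, GRCh38 was used, with Cufflinks 2.1.1 listed as a tool. How reads were aligned and counted, with which annotation and strand rule, is not given in the sources here, and reads of overlapping genes cannot be told apart. They were tested in edgeR 4.0.16 under R 4.3.3: filterByExpr (minimum count 10, minimum total 15), TMM scaling and the quasi-likelihood F-test on all 12994 genes kept, with Benjamini-Hochberg adjustment and a threshold of 0.05. CPM values use TMM factors. Alternatives used DESeq2 1.42.0, limma 3.58.1, other scalings and filters, GC and length offsets (mgcv 1.9.3), thinned controls, replicate number as a block, and leaving out single libraries. The script was tested on simulated data. Symbols, positions, KRAB boxes, fingers and 50-base windows came from GENCODE release 29.

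Members and lists were chosen with earlier results of these data known. Named genes were the 8 largest rises and falls past the threshold without overlap (1 gene qualified as a rise), the 6 highest members, up to 4 per role list, 3 on each side of the threshold, and TRIM28, SETDB1, CBX5, CBX3 and CBX1. Other genes were named after their values were seen, and 1 co-repressor gene is not reported here by name. The biological coefficient of variation was 0.522 in ZQ and 0.265 in control libraries.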

Additional observations from a re-analysis of the deposited data

How the results depend on the processing

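Counts of members past the threshold (22 lower, 1 higher) depended on the filter on low counts, the scaling, the GC and length offsets and the libraries kept, and the cause was not tested. DESeq2 gave 23 lower and 3 higher, limma-voom 25 and 1, upper-quartile scaling 16 and 5, library totals 29 and 0, totals without mitochondrial counts 18 and 2, no filter on low counts 35 and 0, and the stricter filter 19 and 1. The lower shares of members in that order were 26.7%, 29.1%, 18.6%, 33.7%, 20.9%, 40.7% and 22.1%. For genes with at least 500 control counts they were 32.9%, 29.9%, 20.1%, 44.4%, 25.6%, 45.4% and 28%. The higher shares of those genes were 14.1%, 9.45%, 20%, 5.1%, 13.9%, 6.03% and 11.1%. With thinned control libraries 17 members were lower (19.8%) and 1 was higher, against 23.7% and 13.6% of genes with at least 500 control counts. Offsets for GC content and length gave 10 and 6, and with the replicate block 9 and 5. The lower shares of members were then 11.6% and 10.5%, against 25.4% and 23.9% of genes with at least 500 control counts. The higher shares of those genes were 12% and 9.73%. The replicate block alone gave 21 (24.4%) and 0, with a median of -0.82, against 30.6% and 9.39% of genes with at least 500 control counts. Same-numbered libraries correlated at only 0.01, 0.04 and 0.03. Control replicates 2 and 3 correlated best with the ZQ library of their own number. Control replicate 1 stood at 0.0126 with ZQ replicate 3 and 0.0114 with ZQ replicate 1. As the same-number values were all low, the numbers were not taken as pairs. With a library left out, 12 to 29 members were lower and 0 to 2 higher, 2815 to 5407 of all genes passed, 8 to 15 co-repressor genes passed, the median was -0.88 to -0.54 and the summed log2 ratio -0.76 to -0.69. Of genes with at least 500 control counts 18.7% to 35% were lower in those fits, against 14% to 33.7% of members. Without a filter 11603 genes passed.

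The median of -0.71 was -0.85 with limma-voom, -0.26 with upper-quartile scaling, -1.11 by library totals, -0.51 by totals without mitochondrial counts, -1.02 without a filter, -0.13 with offsets, -0.34 with offsets and block, and -0.40 with thinned controls. The summed log2 ratio of -0.72 was -1.12 by library totals, -0.27 with upper-quartile scaling and -0.53 by totals without mitochondrial counts. Other member rules gave, at 250 control counts, 33 lower, 2 higher, a median of -0.62 and a summed ratio of -0.57. At 1000 counts (27 members) they gave 12, 0, -0.90 and -0.92. Chosen on mean CPM over all 6 libraries they gave 14, 2, -0.56 and -0.62, and on ZQ counts alone 8, 4, 0.17 and -0.40. The lower shares of members under these 4 rules were 19.2%, 44.4%, 20.3% and 16.3%, against 26.6%, 37.4%, 29.5% and 24.3% of all genes. The higher shares of members were 1.16%, 0%, 2.9% and 8.16%, against 10.8%, 10.9%, 13.7% and 18% of all genes. CBX3 reversed to 0.85 with offsets, with and without the block. Of the other values of named genes, 538 kept their direction and side of the threshold, 33 (of 13 genes) turned sign without passing on either side, 47 lost the call and 28 gained one. Depth limits the 24 members with fewer than 50 ZQ counts.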
